A study of Homo sapiens with 24 samples.

Results

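The Notch pathway was described through 10 genes in SAS cells, a human line from an oral squamous cell carcinoma, that carried wild-type (WT) or E79Q NRF2. The genes were taken by name from the table of read counts: the receptors NOTCH1, NOTCH2 and NOTCH3, the ligands JAG1, JAG2 and DLL1, the receptor-modifying enzyme LFNG, and the target genes HES1, HEY1 and NRARP. All 10 of the 10 named genes, out of 58735 genes in the table, passed the filter on low counts, which left 15956 genes for testing. JAG1 was higher and NOTCH3, JAG2 and LFNG were lower in E79Q than in WT cells under each of the 4 treatments. Radiation lowered LFNG and raised JAG1 in both genotypes, and CB-839 raised LFNG and HES1 in both genotypes with and without radiation. Some of these calls were lost in refits of the data. They were LFNG between genotypes in control cells, NOTCH3, JAG2 and LFNG between genotypes after radiation plus CB-839, and HES1 in WT cells.

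Notch receptors are membrane proteins that are cut when a ligand on a neighbouring cell pulls on them. The freed intracellular part enters the nucleus, joins the DNA-binding protein RBPJ and switches on target genes such as HES1, HEY1 and NRARP. In stratified squamous epithelium the pathway promotes the step from basal to differentiating cells, and its receptors are often inactivated in squamous carcinomas.

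NRF2, encoded by NFE2L2, is a transcription factor that switches on antioxidant genes, and E79Q lies in the part of the protein bound by its inhibitor KEAP1. CB-839 is an inhibitor of glutaminase. The 24 libraries formed 8 groups of 3 replicates, in E79Q and in WT cells alike: radiation (4 Gy) plus CB-839 (0.1 µM), radiation alone, CB-839 alone, and control. Drug or vehicle preceded radiation by 24 h, and RNA was collected 24 h after it. The sources used here do not say how the WT and E79Q cells were made, whether each is 1 clone, whether endogenous NFE2L2 alleles remained, when RNA of unirradiated cells was taken, or whether replicates were separate cultures. The p-values therefore measure the spread between these libraries, which may be technical. The series text describes 12 irradiated libraries in 4 groups, whereas the labels hold 24, so a batch shared by the other 12 cannot be told apart from radiation.

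Library totals ran from 14285084 to 23640197 counts. The NRF2 target NQO1 averaged 565 to 755 CPM in the E79Q groups and 292 to 400 CPM in the WT groups, where CPM is the read count scaled to the size and composition of the library. The allele cannot be read from these counts. CDKN1A, a p53 target used as a check of radiation, averaged 103 CPM after radiation and 38.2 CPM in control E79Q cells, and 91.6 CPM after radiation and 55.9 CPM in control WT cells. Of the 3 check genes, NQO1, NFE2L2 and CDKN1A, edgeR called 1 higher and 2 lower in E79Q than in WT control cells (adjusted p under 0.05). NFE2L2 was among the lower ones. Under CB-839 2 were higher and 0 lower in E79Q cells, after radiation 1 and 0, and after both 2 and 1. Of the squamous markers, KRT5 averaged 678 CPM or more and TP63 143 CPM or more in every group. The summed level of 6 squamous markers ran from 1194 CPM in E79Q cells under CB-839 to 2166 CPM in WT control cells. Summed markers of other cell types were low, at 0.0943 to 0.243 CPM for 3 leukocyte genes, 1.81 to 4.04 CPM for 3 endothelial genes and 3.58 to 14.9 CPM for 3 fibroblast genes. Of 10 squamous differentiation genes, 4 passed the filter on low counts. Replicate 2 of irradiated E79Q cells with CB-839 stood apart in base composition. Its deviation from the gene means of its own group correlated with GC content at r = 0.479 across genes, which are not independent replicates. Replicate 1 of the same group deviated the other way, at r = -0.379, and replicate 1 of irradiated WT cells with CB-839 had r = 0.257. The deviations of the 3 libraries of a group cancel, so opposite signs within a group are not separate observations.

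On GRCh38 the receptors lay on chromosome 9 at 136494433 to 136545786 (NOTCH1, ENSG00000148400), chromosome 1 at 119911553 to 120069626 (NOTCH2, ENSG00000134250) and chromosome 19 at 15159038 to 15200981 (NOTCH3, ENSG00000074181), all on the minus strand. The ligands lay on chromosome 20 at 10637684 to 10673999 (JAG1, ENSG00000101384), chromosome 14 at 105140981 to 105168824 (JAG2, ENSG00000184916) and chromosome 6 at 170282206 to 170306565 (DLL1, ENSG00000198719), also on the minus strand. LFNG (ENSG00000106003) lay on the plus strand of chromosome 7 at 2512529 to 2529177 and HES1 (ENSG00000114315) on the plus strand of chromosome 3 at 194136145 to 194138732. HEY1 (ENSG00000164683) lay on chromosome 8 at 79764010 to 79767863 and NRARP (ENSG00000198435) on chromosome 9 at 137300482 to 137302251, both on the minus strand. Values are for whole genes, exons of all isoforms together.

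Per kilobase of gene length, and averaged over the 24 libraries, JAG2 was the most abundant of the 10 at 53.7 CPM per kilobase, followed by NRARP at 40.5 and HES1 at 19.4. DLL1 (16.1), NOTCH2 (15.9), LFNG (15.8), JAG1 (14.6) and NOTCH1 (10.4) lay close together on this scale. NOTCH3 at 0.819 and HEY1 at 0.354 CPM per kilobase were far below the others. The spread across groups had another order. The highest group mean was 4.72 times the lowest for both NOTCH3 and LFNG, and 3.81 times for HEY1, whose libraries held only 5 to 45 counts. This ratio was 2.94 times for JAG1, 2.21 times for DLL1 and 1.85 times for JAG2. It was 1.56 times for HES1, 1.35 times for NRARP, 1.33 times for NOTCH1 and 1.19 times for NOTCH2.

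**Figure D1:**
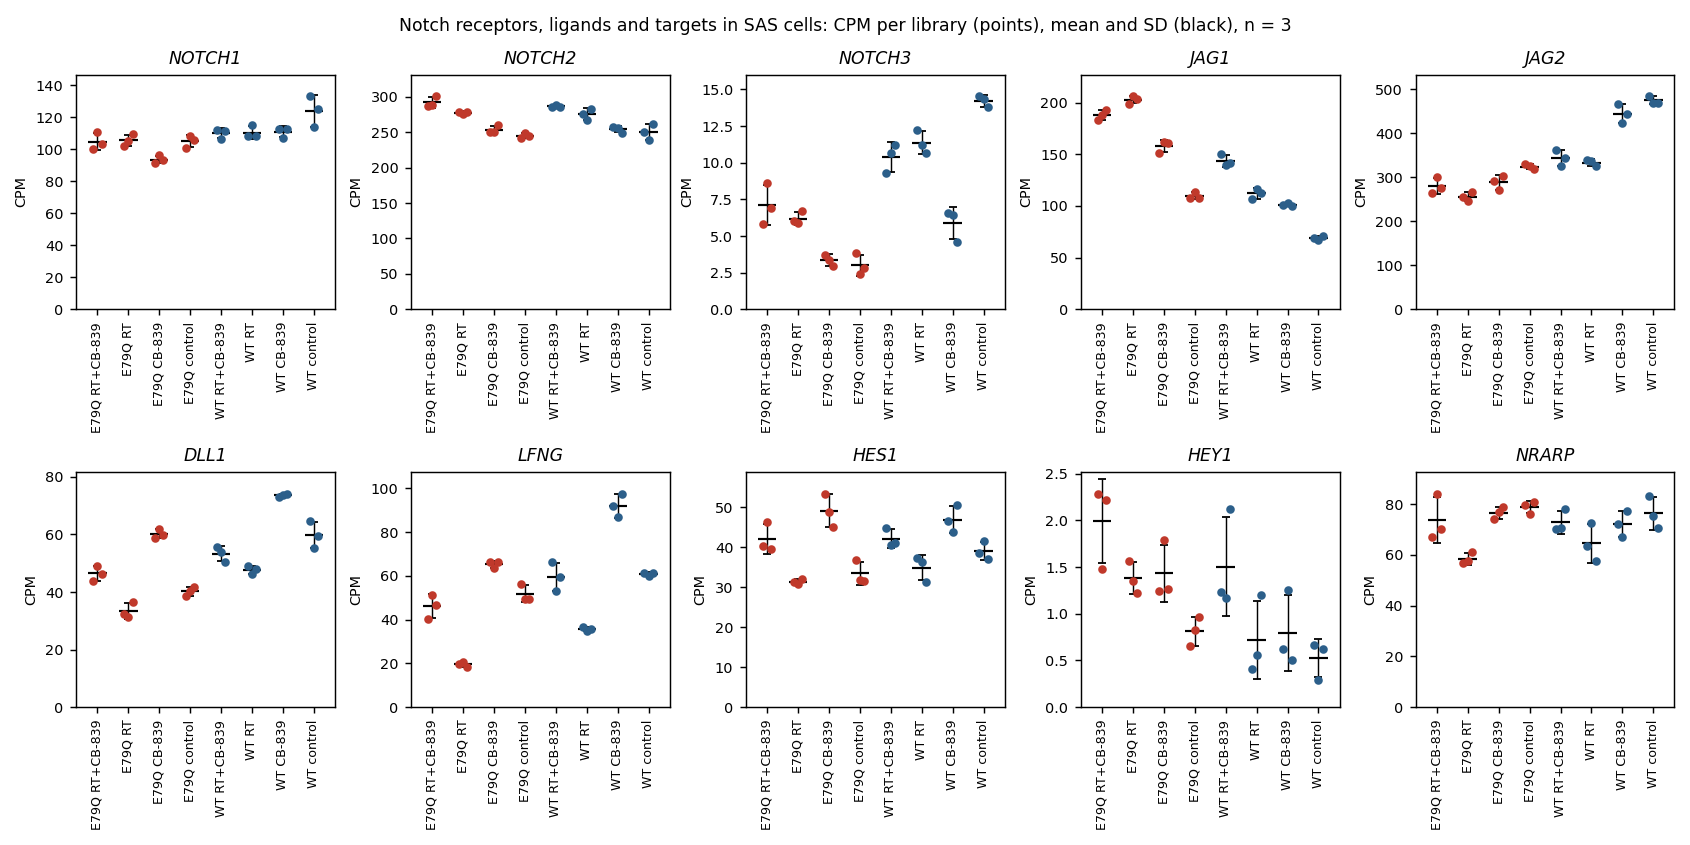
Level of each of the 10 genes (y axis, CPM, each panel with its own scale from 0) in the 8 groups (x axis, E79Q in red, WT in blue; RT is radiation). Points are libraries, and black bars are the mean and SD of 3. JAG1 is lowest and JAG2 and NOTCH3 are highest in WT control cells, and LFNG is lowest in irradiated E79Q cells.

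Between genotypes, 6 of the 10 genes differed in control cells at an adjusted p under 0.05 (edgeR quasi-likelihood test, Benjamini-Hochberg adjusted over 15956 genes), against 19.7% of all genes tested. JAG1 was higher in E79Q cells (9.62% of all genes tested were higher), and NOTCH1, NOTCH3, JAG2, DLL1 and LFNG were lower (10.1% of all genes were lower). Under CB-839 the same comparison called 6 genes, 1 higher and 5 lower, against 15% of all genes (8.3% higher and 6.72% lower). After radiation it called 5 genes, 1 higher and 4 lower, against 9.64% of all genes (4.69% higher and 4.95% lower). After radiation plus CB-839 it called 4 genes, 1 higher and 3 lower, against 7.26% of all genes (4.4% higher and 2.86% lower). The median log2 fold change of the 10 genes was -0.23 in control cells, -0.12 under CB-839, -0.15 after radiation and -0.04 after both, where the median of all genes tested lay between -0.01 and 0.01. The squamous markers were lower too: 6 of 6 in E79Q control cells, 5 under CB-839, 6 after radiation and 4 after both, and none was higher. Their part in the Notch differences was not tested. In bulk RNA, fewer cells that express a gene and less of its RNA per cell cannot be told apart.

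Radiation alone changed 7 of the 10 genes in E79Q cells, 3 higher and 4 lower, against 22.3% of all genes tested (12.2% higher and 10.1% lower). In WT cells it also changed 7 genes, 2 higher and 5 lower, against 17.9% of all genes (9.41% higher and 8.49% lower). That WT count was 4 without replicate 1 or 3 of irradiated WT cells or without replicate 1 of the WT controls. Under CB-839 radiation changed 7 genes in E79Q cells, 4 higher and 3 lower, against 29.2% of all genes (15.3% higher and 13.9% lower). Under CB-839 in WT cells it changed 6 genes, 3 higher and 3 lower, against 23.7% of all genes (13.2% higher and 10.4% lower). Without single libraries the counts under CB-839 ran from 5 to 6 in E79Q and from 6 to 7 in WT cells. The median log2 fold change of the 10 genes was -0.04 in E79Q and -0.20 in WT cells without drug, and 0.06 in E79Q and 0.00 in WT cells with it, where that of all genes ran from 0.00 to 0.02. Of the 6 squamous markers, radiation raised 4 and lowered 2 in E79Q and raised 3 and lowered 2 in WT cells, and under CB-839 raised 3 and lowered 1 in E79Q and raised 2 and lowered 2 in WT cells. Their part was not tested.

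CB-839 alone changed 6 of the 10 genes in E79Q cells, 4 higher and 2 lower, against 19.8% of all genes tested (9.44% higher and 10.4% lower). In WT cells it changed 5 genes, 4 higher and 1 lower, against 14.8% of all genes (6.35% higher and 8.44% lower). Without single libraries the E79Q count ran from 4 to 5 and the WT count from 4 to 6. After radiation the drug raised 4 genes and lowered none in E79Q cells, against 26% of all genes (12.9% higher and 13.1% lower). In irradiated WT cells it raised 3 and lowered none, against 9.53% of all genes (4.99% higher and 4.53% lower). The median log2 fold change of the 10 genes was 0.23 in E79Q and 0.15 in WT cells without radiation, and 0.28 in E79Q and 0.17 in WT cells after it, where that of all genes ran from -0.02 to 0.02. The drug lowered 1 squamous marker in E79Q and 2 in WT cells, and after radiation raised 2 in E79Q and lowered 3 in WT cells, and their part was not tested. These comparisons share libraries with one another and with those of genotype and radiation, so their values are given side by side.

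**Figure D2:**
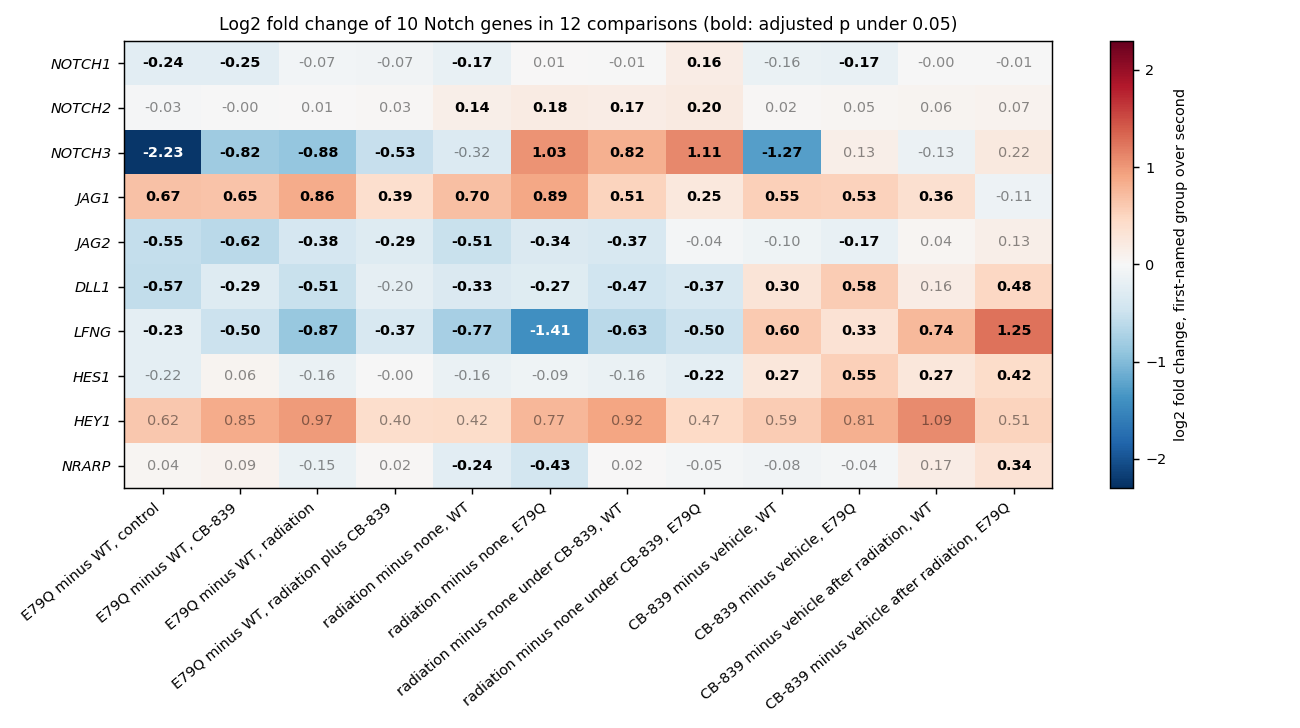
Log2 fold change (colour and printed value) of the 10 genes (rows) in the 12 comparisons of group pairs (columns, first-named group over second). Values in bold passed an adjusted p of 0.05 and grey values did not. The JAG1 row is positive and bold in 11 of 12 columns, and the LFNG row is bold in all 12.

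Among the receptors, NOTCH3 differed most. It held 2.41, 2.83 and 3.81 CPM in E79Q control cells, against 13.8, 14.4 and 14.6 CPM in WT control cells. The groups did not overlap, and the level in E79Q cells was 4.7-fold lower (log2 fold change -2.23, SE 0.159, adjusted p = 2.81e-11). Under CB-839 it held 2.92, 3.38 and 3.72 CPM in E79Q cells, against 4.62, 6.46 and 6.60 CPM in WT cells (-0.82, SE 0.175, adjusted p = 0.00128). After radiation the values were 5.86, 6.02 and 6.68 CPM in E79Q cells, against 10.7, 11.2 and 12.2 CPM in WT cells (-0.88, SE 0.143, adjusted p = 7.24e-05). All E79Q libraries were below all WT libraries in both settings. After radiation plus CB-839 they were 5.83, 6.94 and 8.60 CPM in E79Q cells, against 9.29, 10.7 and 11.2 CPM in WT cells (-0.53, SE 0.142, adjusted p = 0.0184). This last call was lost without replicate 1 or 3 of the E79Q group or replicate 2 or 3 of the WT group, with adjusted p from 0.0643 to 0.0952, and in a fit of these 2 groups alone, at 0.173.

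NOTCH3 was the only one of the 10 genes whose radiation effect had opposite signs in the 2 genotypes with the difference called. Radiation raised it 2.04-fold in E79Q cells (log2 fold change 1.03, SE 0.171, adjusted p = 5.83e-05). In WT cells it averaged 11.4 ± 0.764 CPM after radiation, against 14.2 ± 0.407 CPM in controls (SD, n = 3 each), without overlap, which did not pass the test (log2 fold change -0.32, unadjusted p = 0.0233, adjusted p = 0.0993). It was called lower in WT cells without the 4 libraries of strongest positive GC trend (-0.33, adjusted p = 0.0198). The same held in a fit of the 2 groups alone (-0.32, adjusted p = 0.0158). The effect in E79Q minus that in WT cells was 1.35 on the log2 scale (SE 0.217, adjusted p = 0.00065). Under CB-839 without radiation NOTCH3 averaged 3.34 ± 0.401 CPM in E79Q cells and 3.02 ± 0.718 CPM in their controls, which did not pass the test. NOTCH3 of WT cells fell 2.42-fold, to 5.89 ± 1.11 CPM with the drug (log2 fold change -1.27, SE 0.145, adjusted p = 3.09e-07). The difference between the 2 drug effects was 1.41 (SE 0.242, adjusted p = 0.000172). The 2 differences share the control libraries of both genotypes. With CB-839 present, radiation raised NOTCH3 in E79Q cells (1.11, SE 0.169, adjusted p = 2.34e-05) and in WT cells (0.82, SE 0.147, adjusted p = 0.000163). The order of levels was WT control, then both irradiated WT groups, then both irradiated E79Q groups with WT cells under CB-839, then the other E79Q groups, and replicates overlapped only within these 4 sets.

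NOTCH1, the receptor most often mutated in squamous carcinomas, varied little. It held 101, 106 and 108 CPM in E79Q control cells, against 114, 125 and 133 CPM in WT control cells (log2 fold change -0.24, SE 0.0575, adjusted p = 0.00315). No library of the 2 groups overlapped, but without replicate 1 of the WT controls the adjusted p was 0.0521. Under CB-839 NOTCH1 held 91.2, 93.5 and 96.2 CPM in E79Q cells, against 107, 113 and 113 CPM in WT cells (-0.25, SE 0.058, adjusted p = 0.00372). After radiation it averaged 106 ± 3.68 CPM in E79Q and 110 ± 3.94 CPM in WT cells, and after both treatments 105 ± 5.40 CPM in E79Q and 110 ± 3.06 CPM in WT cells (SD, n = 3 each). Neither of these comparisons passed the test. Its 3 called treatment effects were small, at -0.17 for radiation in WT cells (adjusted p = 0.0409, replicates overlapping), 0.16 for radiation under CB-839 in E79Q cells (adjusted p = 0.0363) and -0.17 for CB-839 in E79Q cells (adjusted p = 0.0443). The first was lost without replicate 1 or 3 of either WT group, at 0.107 to 0.276. The second was lost without replicate 2 of the irradiated cells or without any one of the 3 libraries under CB-839 alone, at 0.054 to 0.16, and correction for GC content and length left it at 0.02 (adjusted p = 0.808). The third was lost without any one of the 3 drug-treated libraries or replicate 2 or 3 of the controls, at 0.06 to 0.124. The same drug effect in WT cells was -0.16, with libraries apart, and was not called by edgeR (unadjusted p = 0.00937, adjusted p = 0.0589). It was called without the 4 libraries of strongest positive GC trend (-0.17, adjusted p = 0.017) and without replicate 2 of the WT controls (-0.22, adjusted p = 0.0168). These drug effects were not called different between genotypes (adjusted p = 0.982).

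NOTCH2 rose after radiation in both genotypes. It held 276, 278 and 279 CPM in irradiated E79Q cells, against 242, 245 and 249 CPM in E79Q controls (log2 fold change 0.18, SE 0.0427, adjusted p = 0.00272). WT cells held 267, 276 and 283 CPM after radiation, against 239, 250.0 and 261 CPM in controls (0.14, SE 0.0427, adjusted p = 0.0219). The irradiated libraries were above the controls in both genotypes, but the WT call was lost without replicate 1 or 3 of the irradiated cells or replicate 1 or 2 of the controls, at adjusted p 0.0652 to 0.157. With CB-839 present, radiation gave 287, 289 and 301 CPM in E79Q cells, against 250.5, 251 and 260 CPM without it (0.20, SE 0.0427, adjusted p = 0.000781). In WT cells with the drug it gave 285, 286 and 289 CPM, against 249, 256 and 258 CPM without radiation (0.17, SE 0.0426, adjusted p = 0.00377). The genotypes had nearly the same group means, 245 CPM in E79Q and 250.0 CPM in WT control cells, and no genotype comparison of NOTCH2 was called by edgeR, at an unadjusted p of 0.05 or by DESeq2. NOTCH2 has close paralogs, of which NOTCH2NLA averaged 2.41 CPM, and reads may be shared between them.

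Of the ligands, JAG1 differed between genotypes under every treatment. It held 108, 108 and 114 CPM in E79Q control cells, against 67.0, 69.0 and 71.1 CPM in WT control cells (log2 fold change 0.67, SE 0.0505, adjusted p = 8.35e-11). Under CB-839 it held 152, 161 and 162 CPM in E79Q cells, against 100.1, 101 and 103 CPM in WT cells (0.65, SE 0.0495, adjusted p = 1.14e-10). All E79Q libraries lay above all WT libraries in both settings. Radiation gave 199, 203 and 207 CPM in E79Q cells, against 107, 113 and 117 CPM in WT cells (0.86, SE 0.0491, adjusted p = 4.97e-13). After both treatments JAG1 held 184, 188 and 193 CPM in E79Q cells, against 139, 142 and 150 CPM in WT cells (0.39, SE 0.0486, adjusted p = 2.9e-06). The libraries again did not overlap, and each of these 4 calls held in every alternative that was run.

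Radiation raised JAG1 1.85-fold in E79Q cells (log2 fold change 0.89, SE 0.0492, adjusted p = 2.19e-13) and 1.62-fold in WT cells (0.70, SE 0.0505, adjusted p = 4.91e-11). CB-839 raised it 1.44-fold in E79Q cells (0.53, SE 0.0494, adjusted p = 9.6e-09) and 1.47-fold in WT cells (0.55, SE 0.0506, adjusted p = 6.4e-09). The drug effect on JAG1 in irradiated cells was called different between the 2 genotypes. In irradiated WT cells the drug raised JAG1 1.28-fold (0.36, SE 0.0491, adjusted p = 2.04e-05). In irradiated E79Q cells JAG1 averaged 188 ± 4.50 CPM with the drug and 203 ± 3.71 CPM without it (SD, n = 3 each), and the 3 libraries with the drug lay below the 3 without it, though edgeR called the difference only with GC and length offsets (-0.14, adjusted p = 0.0113). The drug effect after radiation in E79Q minus that in WT cells was -0.47 (SE 0.0688, adjusted p = 0.000212). With CB-839 present, radiation raised JAG1 by 0.25 in E79Q cells (SE 0.0486, adjusted p = 0.000442) and by 0.51 in WT cells (SE 0.0494, adjusted p = 1.66e-08), and edgeR did not call the difference of these effects, -0.26 (adjusted p = 0.0696). It was called by DESeq2 (-0.25, adjusted p = 0.0264), with GC and length offsets (-0.24, adjusted p = 0.026) and without replicate 2 of irradiated E79Q cells with CB-839 (-0.27, adjusted p = 0.0494). Across the 8 groups the levels stood in steps from WT control at the bottom to irradiated E79Q cells at the top. Only irradiated WT and E79Q control cells, which were neighbours in that order, overlapped.

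JAG2, the most abundant ligand, ran the other way. It held 318, 326 and 330 CPM in E79Q control cells, against 470, 470.1 and 485 CPM in WT control cells (log2 fold change -0.55, SE 0.0538, adjusted p = 1.25e-08). Under CB-839 the values were 270, 293 and 303 CPM in E79Q cells, against 423, 445 and 466 CPM in WT cells (-0.62, SE 0.054, adjusted p = 1.27e-09). After radiation they were 247, 255 and 267 CPM in E79Q cells, against 325, 337 and 339 CPM in WT cells (-0.38, SE 0.054, adjusted p = 1.08e-05). The E79Q libraries were the lower ones throughout. After both treatments they were 265, 276 and 301 CPM in E79Q cells, against 325, 343 and 361 CPM in WT cells (-0.29, SE 0.0538, adjusted p = 0.000588), and this call was lost in a fit of these 2 groups alone (adjusted p = 0.106). Radiation lowered JAG2 1.27-fold in E79Q cells (-0.34, SE 0.054, adjusted p = 3.03e-05) and 1.42-fold in WT cells (-0.51, SE 0.0538, adjusted p = 6.13e-08).

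With CB-839 present, radiation lowered JAG2 in WT cells (log2 fold change -0.37, SE 0.0537, adjusted p = 8.82e-06). In E79Q cells under the drug it averaged 281 ± 18.2 CPM with radiation and 289 ± 16.7 CPM without it (SD, n = 3 each), which was not called. With GC and length offsets JAG2 fell here as well (-0.22, adjusted p = 3.15e-05). The effect in E79Q minus that in WT cells was 0.33 (SE 0.0761, adjusted p = 0.0241). That call was lost without replicate 1 or 2 of E79Q cells under CB-839, replicate 2 or 3 of irradiated WT cells with CB-839, or replicate 1 or 3 of WT cells under CB-839, at adjusted p 0.0522 to 0.143, and in a fit of these 4 groups alone, at 0.24. CB-839 alone lowered JAG2 slightly in E79Q cells (-0.17, SE 0.054, adjusted p = 0.0262), a call lost without replicate 2 of the treated cells or replicate 1 or 2 of the controls, at 0.0572 to 0.163. In WT cells JAG2 averaged 444 ± 21.5 CPM with the drug and 475 ± 8.98 CPM without it, and the libraries did not overlap, but the test was not passed.

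Set per kilobase, JAG1 was 0.233 ± 0.00719 of JAG2 in E79Q control cells and 0.100 ± 0.00358 in WT control cells (SD, n = 3 each). Under CB-839 the ratio was 0.379 ± 0.0300 in E79Q and 0.157 ± 0.00932 in WT cells. After radiation it was 0.545 ± 0.0269 in E79Q and 0.231 ± 0.0121 in WT cells, and after both treatments 0.463 ± 0.0276 in E79Q and 0.289 ± 0.00578 in WT cells. The ratio in E79Q exceeded that in WT cells under each treatment with no overlap of libraries. An exact permutation test of 3 against 3 libraries cannot give a p below 0.1, so the ratio was not tested on its own. JAG1 made up 30.2% of the summed level of the 3 ligands per kilobase in irradiated E79Q cells and 7.41% in WT control cells, while JAG2 made up 55.5% in irradiated E79Q cells and 74.1% in WT control cells. The summed level itself was 75.0 CPM per kilobase in E79Q control and 100.2 in WT control cells, and 80.9 in E79Q and 103.2 in WT cells under CB-839. After radiation it was 72.3 in E79Q and 78.99 in WT cells, and after both treatments 78.5 in E79Q and 85.7 in WT cells, and libraries overlapped after both. Over the 24 libraries the log2 levels of JAG1 and JAG2 had a Pearson r of -0.899, a description only, since libraries of a group share their treatment and genotype.

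**Figure D3:**
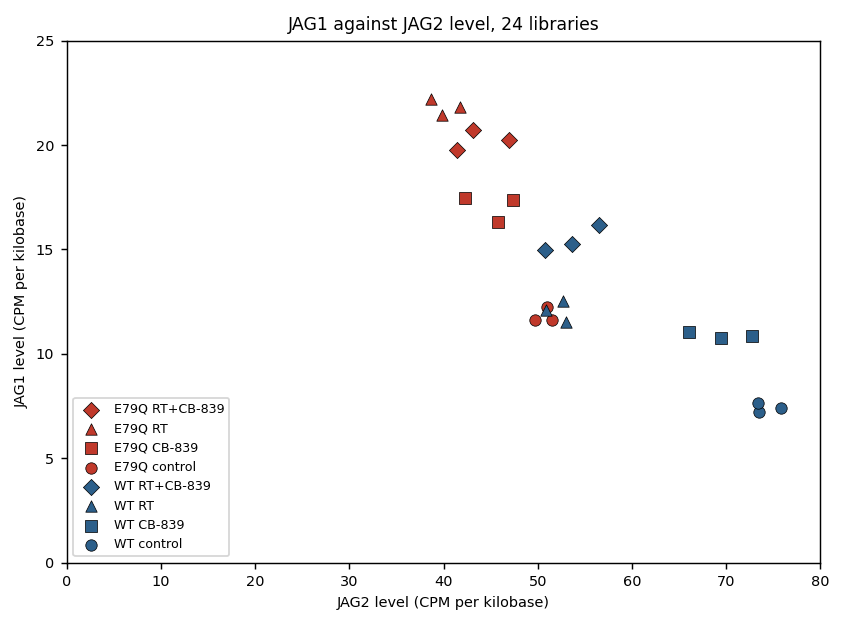
JAG1 level (y axis) against JAG2 level (x axis), both in CPM per kilobase, in the 24 libraries (E79Q in red, WT in blue; marker shapes are treatments, RT is radiation). WT control libraries lie at the lower right and irradiated E79Q libraries at the upper left, and the E79Q control libraries lie beside the irradiated WT libraries.

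DLL1, a ligand of the Delta class, was lower in E79Q cells and higher under CB-839. It held 38.6, 40.4 and 41.7 CPM in E79Q control cells, against 55.3, 59.5 and 64.6 CPM in WT control cells (log2 fold change -0.57, SE 0.0682, adjusted p = 3.94e-07). Under CB-839 it held 58.9, 60.0 and 62.0 CPM in E79Q cells, against 73.2, 73.8 and 74.2 CPM in WT cells (-0.29, SE 0.0665, adjusted p = 0.00277). After radiation it held 31.3, 32.2 and 36.7 CPM in E79Q cells, against 46.2, 47.9 and 48.9 CPM in WT cells (-0.51, SE 0.069, adjusted p = 4.59e-06). No libraries overlapped in these 3 settings. After both treatments the means were 46.5 ± 2.64 CPM in E79Q and 53.3 ± 2.69 CPM in WT cells (SD, n = 3 each), with no overlap and no call. It was called with GC and length offsets (-0.23, adjusted p = 0.0125). DLL1 overlaps FAM120B on the opposite strand, which averaged 33.9 CPM. Whether counting used the strand is not given in the sources used here, so reads of the 2 genes may not be told apart.

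CB-839 raised DLL1 1.5-fold in E79Q cells (log2 fold change 0.58, SE 0.0684, adjusted p = 4.58e-07) and 1.23-fold in WT cells (0.30, SE 0.0662, adjusted p = 0.00198). The difference of these effects, 0.28 (SE 0.0951, adjusted p = 0.0451), was lost without each of the 12 libraries in turn except replicate 2 of the WT controls, at adjusted p 0.0658 to 0.188, and also with DESeq2, at 0.0535. After radiation the drug raised DLL1 in E79Q cells (0.48, SE 0.0689, adjusted p = 1.14e-05), while in WT cells it averaged 53.3 ± 2.69 CPM with the drug and 47.7 ± 1.36 CPM without it, not called. The difference of these effects, 0.32, was not called by edgeR (adjusted p = 0.0949). It was called without replicate 1 of irradiated E79Q cells with CB-839 (0.36, adjusted p = 0.0428). Radiation lowered DLL1 in all 4 comparisons, by 0.27 in E79Q cells (adjusted p = 0.00557), by 0.33 in WT cells (adjusted p = 0.000816), by 0.37 in E79Q cells under CB-839 (adjusted p = 0.000176) and by 0.47 in WT cells under CB-839 (adjusted p = 7.24e-06), all on the log2 scale.

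LFNG, the fringe enzyme that adds sugars to Notch receptors and shifts their response towards Delta ligands, was called in all 12 comparisons of group pairs. It held 18.3, 19.8 and 20.4 CPM in irradiated E79Q cells, against 49.5, 49.6 and 56.2 CPM in E79Q controls. This was 2.66-fold lower with no overlap (log2 fold change -1.41, SE 0.0854, adjusted p = 1.46e-12). In WT cells LFNG held 35.0, 35.5 and 36.5 CPM after radiation, against 59.7, 61.2 and 61.4 CPM in controls, 1.7-fold lower and again apart (-0.77, SE 0.0812, adjusted p = 6.13e-08). The radiation effect in E79Q minus that in WT cells was -0.64 (SE 0.118, adjusted p = 0.00314). With CB-839 present, radiation lowered LFNG by 0.50 in E79Q cells (SE 0.0798, adjusted p = 4.55e-05) and by 0.63 in WT cells (SE 0.0777, adjusted p = 8.67e-07).

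The drug moved LFNG upwards. CB-839 gave 63.4, 66.1 and 66.4 CPM in E79Q cells, above all 3 controls (log2 fold change 0.33, SE 0.0796, adjusted p = 0.00331). WT cells held 86.7, 91.9 and 97.5 CPM, also above all controls (0.60, SE 0.0779, adjusted p = 2.78e-06). Without radiation the drug effect in E79Q minus that in WT cells was -0.27, not called by edgeR (unadjusted p = 0.0248, adjusted p = 0.118). This difference was called with GC and length offsets (-0.28, adjusted p = 0.00628) and in a fit of these 4 groups alone (-0.26, adjusted p = 0.0293). After radiation LFNG held 40.4, 46.8 and 51.3 CPM in E79Q cells with the drug, 2.37-fold above irradiated cells without it (1.25, SE 0.0853, adjusted p = 5.45e-11). In irradiated WT cells it held 53.1, 59.3 and 66.1 CPM with the drug, a 1.67-fold rise (0.74, SE 0.0809, adjusted p = 7.68e-07). The drug effect after radiation in E79Q minus that in WT cells was 0.50 (SE 0.117, adjusted p = 0.0211). It was lost without replicate 3 of irradiated E79Q cells with CB-839, replicate 1 or 3 of irradiated E79Q cells, replicate 2 or 3 of irradiated WT cells with CB-839 or replicate 1 of irradiated WT cells, at adjusted p 0.0539 to 0.0826, and in a fit of these 4 groups alone, at 0.122.

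Between genotypes, LFNG was lower in E79Q cells by 0.87 on the log2 scale after radiation (SE 0.0866, adjusted p = 2.81e-08), by 0.50 under CB-839 (SE 0.078, adjusted p = 3.41e-05) and by 0.37 after both (SE 0.0793, adjusted p = 0.00332). No libraries overlapped in any of these. The call after both was lost in a fit of the 2 groups alone (adjusted p = 0.207). In control cells the log2 fold change was -0.23 (SE 0.0795, adjusted p = 0.0406), a call that ended without replicate 2 or 3 of the E79Q controls or any one of the WT controls, at 0.0792 to 0.17, and under another scaling, at 0.051.

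**Figure D4:**
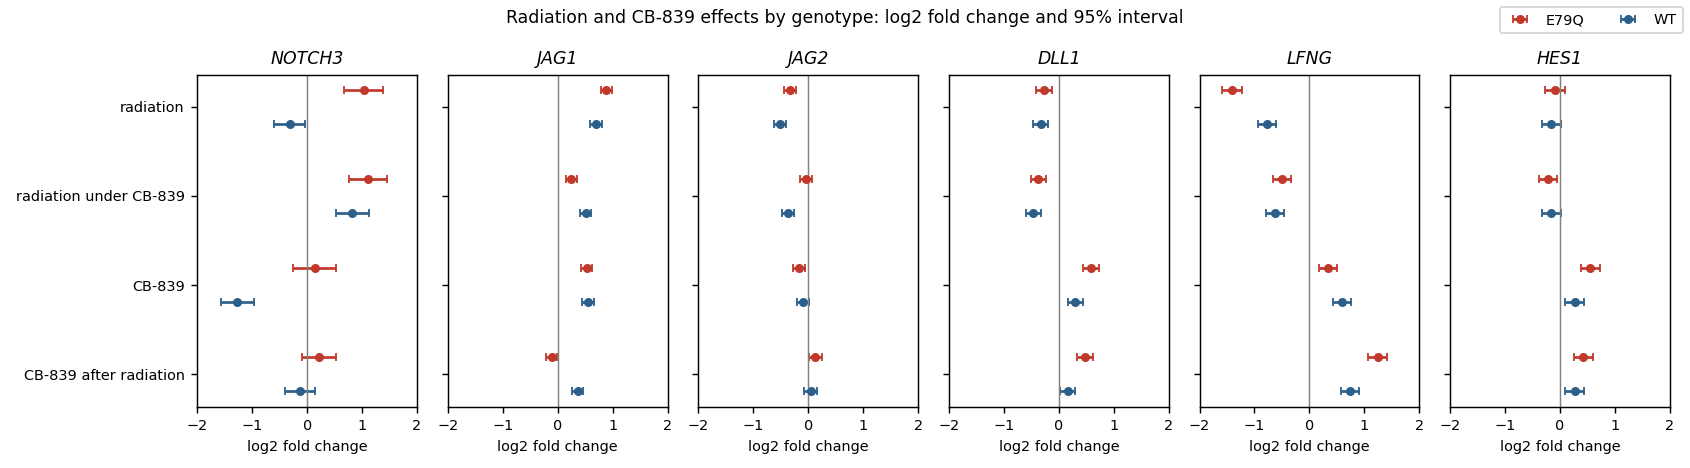
Log2 fold change with 95% interval (x axis) for radiation without and with CB-839 and for CB-839 without and after radiation (rows), in E79Q (red) and WT cells (blue), for 6 of the genes. The genotypes stand apart for NOTCH3 under radiation (1.03 and -0.32) and under CB-839 (0.13 and -1.27), and for JAG1 under CB-839 after radiation (-0.11 and 0.36).

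The promoter of LFNG at its first annotated start is shown because this gene moved most often, and its letters include the core of the site that RBPJ binds. In the 300 bases from 250 before to 50 after each annotated gene start (RefSeq, GRCh38.p14), the letters TGGGAA were searched on both strands. Windows were read for 8 of the 10 genes, 9 windows in all. LFNG held 1 match in each of its 2 windows, HES1 held 2 and the other 6 genes held none, against 24.0% of all 35114 windows with at least 1. The longer GTGGGAA, which contains the shorter motif, was found once in HES1 and in 6.25% of all windows. The NRF2 element TGACNNNGC was in none of the 9 windows and in 13.3% of all windows. In the stretch of LFNG at chr7:2512504-2512553 (plus strand, 5′ to 3′), capitals mark the match, which reads TGGGAA on the minus strand.
LFNG: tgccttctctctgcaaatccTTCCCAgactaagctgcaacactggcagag

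HES1, a repressor that is the best known target of Notch signalling, followed the drug. It held 45.1, 48.8 and 53.4 CPM in E79Q cells under CB-839, against 31.6, 31.9 and 36.8 CPM in E79Q controls, 1.47-fold higher with no overlap (log2 fold change 0.55, SE 0.0846, adjusted p = 2.5e-05). WT cells held 43.8, 46.6 and 50.5 CPM under CB-839, against 37.05, 38.6 and 41.5 CPM in controls (0.27, SE 0.0835, adjusted p = 0.0296). After radiation it held 39.6, 40.4 and 46.4 CPM with the drug in E79Q cells, against 30.9, 31.4 and 32.0 CPM without it (0.42, SE 0.084, adjusted p = 0.000514). In irradiated WT cells it held 40.5, 41.1 and 44.9 CPM with the drug, against 31.4, 36.2 and 37.2 CPM without it (0.27, SE 0.0837, adjusted p = 0.0413). The groups were apart in all 4 comparisons. Both WT calls depended on single libraries: without replicate 1 or 3 of the treated or of the control cells the first had adjusted p 0.0712 to 0.157. Without replicate 1 or 3 of the irradiated cells with drug, or replicate 2 or 3 of those without, the second had 0.0603 to 0.21. The drug effects of the 2 genotypes were not called different, with or without radiation, in the main edgeR fit, which used all libraries without offsets. Without radiation the difference was 0.28 (unadjusted p = 0.0241). It was called without the 4 libraries of strongest positive GC trend (0.41, adjusted p = 0.00442) and with GC and length offsets (0.30, adjusted p = 0.0266).

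Radiation lowered HES1 in E79Q cells under CB-839 by 0.22 (SE 0.0829, adjusted p = 0.0485), with overlapping replicates. This call was lost without replicate 1 or 3 of the irradiated or replicate 1 or 2 of the unirradiated cells, at 0.113 to 0.285, and with DESeq2, at 0.0527. No genotype comparison of HES1 was called in the main edgeR fit, without offsets, or by DESeq2: the means were 33.5 ± 2.92 CPM in E79Q and 39.0 ± 2.25 CPM in WT control cells (SD, n = 3 each). The control libraries did not overlap, with an unadjusted p of 0.0151. The lower E79Q level was called without the 4 libraries of strongest positive GC trend (log2 fold change -0.29, adjusted p = 0.00375) and with GC and length offsets (-0.24, adjusted p = 0.0121). It was also called in a fit of the 2 groups alone (-0.22, adjusted p = 0.0299) and without replicate 1 of the E79Q controls (-0.30, adjusted p = 0.0321). The 250 bases before the HES1 start (chr3:194135898-194136147, plus strand, 5′ to 3′) are shown because they hold both matches, which lie on the plus strand. Capitals mark the longer match at 85 bases and the shorter one at 70 bases before the start.
HES1: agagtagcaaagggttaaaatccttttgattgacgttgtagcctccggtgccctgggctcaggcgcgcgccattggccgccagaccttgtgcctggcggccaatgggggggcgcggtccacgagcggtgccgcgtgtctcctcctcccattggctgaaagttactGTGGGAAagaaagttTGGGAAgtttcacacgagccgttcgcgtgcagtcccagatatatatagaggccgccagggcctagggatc

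The target NRARP, which dampens Notch signalling, held 56.6, 57.7 and 61.2 CPM in irradiated E79Q cells, against 76.2, 79.5 and 80.7 CPM in E79Q controls (log2 fold change -0.43, SE 0.0839, adjusted p = 0.000395). The drug raised it after radiation in E79Q cells, to 67.2, 70.1 and 84.1 CPM (0.34, SE 0.0838, adjusted p = 0.00396). The libraries did not overlap in either comparison, and the second call was lost in a fit of the 2 groups alone (adjusted p = 0.051). In irradiated WT cells NRARP averaged 72.9 CPM with the drug and 64.6 CPM without it, not called by edgeR (0.17, unadjusted p = 0.0492). It was called without the 4 libraries of strongest positive GC trend (0.20, adjusted p = 0.0439). The difference of the 2 drug effects, 0.16, was not called (adjusted p = 0.603). In WT cells NRARP held 57.6, 63.5 and 72.8 CPM after radiation, against 70.5, 75.3 and 83.2 CPM in controls (-0.24, SE 0.0838, adjusted p = 0.0468), with overlap, and the call was lost without replicate 1 or 3 of the irradiated cells or replicate 1 or 2 of the controls, at 0.0882 to 0.254. CB-839 without radiation left NRARP at 76.5 ± 2.39 CPM with the drug and 78.8 ± 2.33 CPM without it in E79Q cells, and at 72.1 ± 5.14 CPM with the drug and 76.4 ± 6.40 CPM without it in WT cells (SD, n = 3 each), neither called. With CB-839 present, radiation changed NRARP by -0.05 in E79Q and 0.02 in WT cells, neither called. With GC and length offsets the fall in E79Q cells was called (-0.26, adjusted p = 0.00139). No genotype comparison was called for this gene.

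HEY1, a repressor related to HES1, was near the detection limit. Its libraries held 5 to 45 counts, and the group means were 1.99, 1.38, 1.43 and 0.813 CPM in E79Q cells after both treatments, after radiation, under CB-839 and in controls, against 1.50, 0.720, 0.795 and 0.523 CPM in the same WT groups. None of its 12 comparisons was called by edgeR, 5 had an unadjusted p under 0.05 and DESeq2 called 1. The DESeq2 call was that of CB-839 after radiation in WT cells (adjusted p = 0.044, higher with the drug). EdgeR also called it without the 4 libraries of strongest positive GC trend (adjusted p = 0.0394) and without replicate 3 of irradiated WT cells (0.0256). Without that replicate HEY1 was also called between genotypes after radiation (0.0282), and without replicate 2 of WT cells under CB-839 for radiation under CB-839 in WT cells (0.0257).

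Among the 10 genes, some pairs ran together over the 24 libraries. LFNG and DLL1 had a Pearson r of 0.872 in log2 CPM, HES1 and DLL1 0.780 and LFNG and HES1 0.762. Among protein-coding genes outside the lists with a mean log2 CPM of at least 1, those most like each member were read by the same measure. They were PODXL (0.971) and SPRY4 (0.964) for JAG1, MEST (0.958) and RARG (0.947) for JAG2, and FGFR2 (0.968) and SAMD1 (0.949) for LFNG. For DLL1 they were TENM2 (0.944) and CPA4 (0.928), for NOTCH3 PTPRS (0.912) and PTK2B (0.911), for NOTCH2 TOB1 (0.927) and APLP1 (0.920), and for NOTCH1 LAMA5 (0.909) and ARSI (0.879). HES1 was most like IGSF9 (0.893) and TSTD1 (0.869), NRARP most like IRF2BP1 (0.847) and PNMA1 (0.844), and HEY1 most like MYO10 (0.825) and RCBTB2 (0.816). The libraries share groups and depth, so these are descriptions.

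The differences between genotypes in treatment effects were called for few genes. The radiation effect differed for 2 of the 10, NOTCH3 upwards and LFNG downwards, against 1.26% of all genes tested (0.815% with a positive and 0.445% with a negative difference). Under CB-839 the radiation effect differed for JAG2, with a positive difference, against 1.08% of all genes (0.363% positive and 0.714% negative). The CB-839 effect differed for NOTCH3 and DLL1, both positive, against 14.3% of all genes (7.46% positive and 6.83% negative). After radiation it differed for LFNG, positive, and JAG1, negative, against 1.91% of all genes (1.26% positive and 0.652% negative). The median difference of the 10 genes was 0.12, 0.06, 0.03 and 0.12 in this order, where that of all genes was 0.01, -0.01, 0.03 and -0.01.

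Of 47 other genes of the pathway, in 5 lists, 42 passed the filter on low counts. In control cells 2 of them were higher and 8 lower in E79Q than in WT cells, against 9.62% and 10.1% of all genes tested. DTX4, a ubiquitin ligase of the Deltex family, averaged 20.5 ± 0.228 CPM in E79Q and 38.9 ± 2.50 CPM in WT controls (log2 fold change -0.92, SE 0.0784, adjusted p = 8.19e-10). It was also lower in E79Q cells under CB-839 (-0.85), after radiation (-0.70) and after both (-0.50), with adjusted p from 1.26e-08 to 0.000118. NEURL1, a ubiquitin ligase of the Neuralized family, was 0.47 lower in E79Q control cells (adjusted p = 2.99e-07), and HES4, a relative of HES1, was 1.22 lower (SE 0.207, adjusted p = 7.42e-05) at 2.56 ± 0.749 CPM in E79Q and 6.02 ± 1.31 CPM in WT cells. In the list of receptor-modifying and cleaving enzymes, POFUT1 (0.29) and POGLUT1 (0.38), which add sugars to the receptor, were higher, while the protease ADAM10 (-0.47) was lower in E79Q controls. DLK2, a non-canonical ligand, was 0.26 lower (adjusted p = 0.0477). Under CB-839 4 of the 42 were higher and 2 lower in E79Q cells, after radiation 1 and 4, and after both 3 and 2. Of all genes tested, 8.3% were higher and 6.72% lower under CB-839, 4.69% and 4.95% after radiation, and 4.4% and 2.86% after both.

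Of the 10 tested genes of the nuclear complex around RBPJ, none was called between genotypes by edgeR in any of the 4 treatments. At an unadjusted p under 0.05 there were 1 in control cells, 0 under CB-839, 1 after radiation and 2 after both, and DESeq2 called 1 in control cells and 0 in the others. Of all genes tested, edgeR called 19.7% in control cells, 15% under CB-839, 9.64% after radiation and 7.26% after both. RBPJ itself was 0.35 higher after radiation in WT cells (SE 0.101, adjusted p = 0.0163), at 66.7 ± 2.06 CPM after radiation and 52.4 ± 1.50 CPM in controls (SD, n = 3 each). The coactivator MAML1 fell in the same comparison (-0.17, adjusted p = 0.0342).

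Radiation raised 7 and lowered 6 of the 42 in E79Q cells, and raised 2 and lowered 4 in WT cells. Under CB-839 it raised 7 and lowered 3 in E79Q and raised 10 and lowered 4 in WT cells. Of all genes tested, radiation raised 12.2% and lowered 10.1% in E79Q cells, and raised 9.41% and lowered 8.49% in WT cells. With the drug these shares were 15.3% and 13.9% in E79Q and 13.2% and 10.4% in WT cells. DTX4 fell by 0.40 in E79Q (adjusted p = 0.000746) and by 0.62 in WT cells (adjusted p = 9.13e-07). HES2 rose in E79Q cells (1.52, SE 0.327, adjusted p = 0.00112), from a low level, to 2.28 ± 0.160 CPM after radiation, against 0.784 ± 0.311 CPM in controls. NUMB, an endocytic inhibitor of Notch, rose by 0.28 in E79Q cells (adjusted p = 3e-04).

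CB-839 raised 4 and lowered 6 of the 42 in E79Q cells, and raised none and lowered 8 in WT cells. After radiation it raised 9 and lowered 1 in E79Q and raised 3 and lowered 1 in WT cells. Of all genes tested, the drug raised 9.44% and lowered 10.4% in E79Q cells, and raised 6.35% and lowered 8.44% in WT cells. After radiation these shares were 12.9% and 13.1% in E79Q and 4.99% and 4.53% in WT cells. DTX4 fell with the drug in both genotypes, by 0.45 in E79Q (adjusted p = 0.000308) and by 0.52 in WT cells (adjusted p = 1.6e-05). NEURL1 fell by 0.25 in E79Q (adjusted p = 0.00153) and by 0.49 in WT cells (adjusted p = 2.01e-07), and the difference of 0.24 was called (adjusted p = 0.0384). NCSTN, a subunit of the gamma-secretase that releases the intracellular part of Notch, rose with the drug in E79Q cells (0.31, adjusted p = 3.02e-05), and after radiation in E79Q (0.49, adjusted p = 2.19e-08) and WT cells (0.29, adjusted p = 0.000269). The drug effect without radiation differed between genotypes for 11 of the 42, 10 positive and 1 negative, against 7.46% positive and 6.83% negative of all genes. Among the 11 were HES4 (1.41, SE 0.298, adjusted p = 0.0016), ADAM17 (0.51, adjusted p = 0.00153) and, as the negative one, POFUT1 (-0.31, adjusted p = 0.00857). The other differences between genotypes were called for none of the 42 by edgeR: for radiation 10 had an unadjusted p under 0.05 and DESeq2 called 1, for radiation under CB-839 these were 4 and 0, and for CB-839 after radiation 6 and 0. Of all genes tested, edgeR called 1.26%, 1.08% and 1.91% in this order.

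Notch signalling is known to raise squamous differentiation genes in normal epithelium. Of the 10 listed here, 9 averaged at most 2.13 CPM in any group, and KRT10, a keratin of differentiating cells, averaged 25.5 to 30.0 CPM over the groups. Of the 4 tested, GRHL3, a transcription factor of the barrier, averaged 0.303 ± 0.180 CPM in E79Q and 0.864 ± 0.283 CPM in WT control cells (log2 fold change -1.50, SE 0.444, adjusted p = 0.0165). GRHL3 was the only one called between genotypes in control cells, against 19.7% of all genes tested. CB-839 raised it in E79Q cells to 1.54 ± 0.0914 CPM (2.32, SE 0.412, adjusted p = 0.000155), and radiation to 1.04 ± 0.350 CPM (1.73, SE 0.427, adjusted p = 0.00378). In irradiated WT cells the drug raised GRHL3 as well (1.17, SE 0.319, adjusted p = 0.0206). Without radiation its drug effect was called different between genotypes (1.71, SE 0.552, adjusted p = 0.0362). IVL, a protein of the cornified envelope, rose after radiation in WT cells (1.66, SE 0.556, adjusted p = 0.0372), to 1.13 ± 0.478 CPM, against 0.354 ± 0.172 CPM in controls. In E79Q cells under CB-839 radiation also raised IVL (1.74, SE 0.566, adjusted p = 0.0219).

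Replicate 2 of irradiated E79Q cells with CB-839, whose GC trend was the strongest of the 24 libraries, held the highest level of its group for NOTCH1, NOTCH3, JAG2, DLL1, LFNG, HES1 and NRARP. Without it 1 called value of the 10 genes was lost, that of NOTCH1 for radiation under CB-839 in E79Q cells (adjusted p = 0.16). DLL1 was then called between genotypes after both treatments (-0.25, adjusted p = 0.0216).

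Some of the smaller calls also ended under other settings. Without the filter on low counts the radiation calls of NOTCH2 were lost in E79Q cells (adjusted p = 0.0714) and WT cells (0.224), as were those of NOTCH1 for radiation in WT cells (0.139), radiation under CB-839 in E79Q cells (0.0668) and CB-839 in E79Q cells (0.0889). The same setting ended the calls of HES1 for radiation under CB-839 in E79Q cells (0.141), LFNG between genotypes in control cells (0.0666) and DLL1 for the different CB-839 effect (0.23). With RLE scaling the HES1 call had an adjusted p of 0.0583 and that of DLL1 0.0671. Without the 4 libraries of strongest positive GC trend DLL1 had 0.0557 and NOTCH1, for radiation under CB-839 in E79Q cells, 0.122. Fitted alone, that last comparison also lost NOTCH1 (0.2), NOTCH2 (0.0723), HES1 (0.161) and JAG1 (0.0515).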

How the data were processed

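RNA was sequenced from 24 libraries of SAS cells, 3 in each of 8 groups taken from the labels. The authors deposited 1 table of raw read counts per gene, with other values such as gene length beside them. STAR, HTSeq and GRCh38 are named in the submitters' processing notes, without versions, and the annotation, filters and strand setting behind the counts are not given in the sources used. The last 3 columns carry shortened names that were matched to sample titles, and 0 columns belonged to no listed sample.

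Genes were filtered with filterByExpr and scaled with TMM, which left 15956. All 24 libraries entered 1 edgeR quasi-likelihood fit (edgeR 4.0.16, limma 3.58.1, R 4.3.3) with 16 residual degrees of freedom and a common biological coefficient of variation of 7.19%. In each of 16 comparisons p-values were adjusted by Benjamini-Hochberg over all genes tested, at a threshold of 0.05. CPM used TMM-scaled library sizes, and log2 CPM a prior count of 2. An exact permutation test of 3 against 3 libraries cannot go below p = 0.1, so single values were not tested that way. The fit was tested on simulated data. Replicates of a group correlated at 0.985 to 0.992, and each pair differed by more than sampling noise (chi-square per degree of freedom 2.21 to 28.8). Mitochondrial genes took 1.93% to 3.55% of counts.

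Alternatives were RLE scaling, no filter, a replicate block, leaving out the 4 libraries with the strongest positive GC trend, offsets for GC content and length (known for 99.97% of tested genes), each comparison fitted alone, DESeq2 1.42.0, and 24 fits without 1 library each. The 4 GC-trend libraries had r from 0.166 to 0.479. Replicate 1 of irradiated E79Q cells with CB-839, at r = -0.379, was not among them and stayed in that fit. All 10 members were named in every comparison. Of each other list, the 2 genes with the smallest p in each direction were candidates for naming. Some genes of these lists are not reported here by name. Likeness was Pearson's r over the 24 libraries among protein-coding genes outside the lists with a mean log2 CPM of at least 1. Members and lists were chosen with earlier results of these data known. Promoters were RefSeq windows on GRCh38.p14.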

Additional observations from a re-analysis of the deposited data

Results flagged for a closer look

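Each of 7 differences between the genotypes in a treatment effect passed the test of the difference itself (edgeR, adjusted over all genes tested), given as the effect in E79Q minus that in WT cells on the log2 scale. For radiation these were NOTCH3 at 1.35 (SE 0.217, adjusted p = 0.00065) and LFNG at -0.64 (SE 0.118, adjusted p = 0.00314). For radiation under CB-839 it was JAG2 at 0.33 (SE 0.0761, adjusted p = 0.0241). For CB-839 they were NOTCH3 at 1.41 (SE 0.242, adjusted p = 0.000172) and DLL1 at 0.28 (SE 0.0951, adjusted p = 0.0451). For CB-839 after radiation they were JAG1 at -0.47 (SE 0.0688, adjusted p = 0.000212) and LFNG at 0.50 (SE 0.117, adjusted p = 0.0211). The values of JAG2, DLL1 and the second one of LFNG each depended on single libraries, named beside them in the results. Groups of 3 are too small for the rule on single outlying values, which was not applied.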

How the results depend on the processing

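Of the 73 called values of the 10 genes, 52 held in every alternative, 21 were lost in at least 1 and none changed direction. Of the 87 uncalled values, 19 were called in at least 1 alternative (11 of them with GC and length offsets) and 29 changed sign in at least 1, so a value that was not called is not thereby stable. By setting, the losses were 10 with each comparison fitted alone, 8 without the filter, 5 with the replicate block, 3 with RLE scaling, 2 with DESeq2, 2 without the 4 GC-trend libraries and 1 with GC and length offsets. Leaving out 1 library lost 69 of 480 refitted calls, from 15 of the 73 values.

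Same-numbered libraries did not deviate together: 0 of 84 pairs had r over 0.1 (range -0.175 to 0.0871), and 4 of 24 libraries matched best with their own number in another group. No pairing by number was seen in this measure. Whether same-numbered libraries shared a culture day or batch was not tested. With the replicate block, the members with a different CB-839 effect numbered 1, against 2 without it.

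The number of members with a different CB-839 effect (2) was also 1 with RLE scaling, without the filter and with DESeq2, 5 with GC and length offsets, and 1 to 2 without single libraries. The number for radiation under CB-839 (1) was 2 with GC and length offsets and with DESeq2, 0 when fitted alone, and 0 to 2 without single libraries, being 2 without replicate 2 of irradiated E79Q cells with CB-839. The number for CB-839 after radiation (2) was 1 when fitted alone and 1 to 3 without single libraries. Between genotypes after both treatments the count of 4 was 1 when fitted alone, and for radiation under CB-839 in E79Q cells the count of 7 was 3. For CB-839 after radiation in WT cells the count of 3 was 5 without the GC-trend libraries. For radiation in WT cells the count of 7 ran from 4 to 7 without single libraries.

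Counts over all genes moved as follows. Without the 4 GC-trend libraries they were 2606 between genotypes after radiation (against 1538), 4313 for radiation in WT cells (2855), 507 for the different radiation effect (201) and 719 for the different CB-839 effect after radiation (305). With GC and length offsets they were 1978 between genotypes after both treatments (1159), 535 for the different radiation effect, 306 for that under CB-839 (172), 3565 for the different CB-839 effect (2280) and 810 for that after radiation. Fitted alone they were 3081 between genotypes after radiation, 234 after both, 4322 for radiation in WT cells, 1667 for radiation under CB-839 in E79Q cells (4667), 1601 for CB-839 after radiation in E79Q cells (4141), and 611, 40 and 132 for the different effects of radiation, of radiation under CB-839 and of CB-839 after radiation. Without single libraries the ranges were 740 to 1639 between genotypes after both, 3073 to 5683 for radiation under CB-839 in E79Q cells, 638 to 1477 for CB-839 after radiation in WT cells, and 107 to 144, 92 to 252 and 145 to 545 for those 3 different effects. The cause was not tested, except that fits of a comparison alone and without libraries hold fewer samples.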
